A study of Homo sapiens with 3 samples.

Results

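The miR-106b-25 cluster on chromosome 7 and the miR-106a-363 cluster on chromosome X are the paralogs of the chromosome 13 cluster miR-17-92a. Their members were taken by name from the deposited small RNA sequencing tables, as 10 of the 2588 mature miRNAs listed. The chromosome 7 cluster supplied 6 members, namely hsa-miR-106b-5p, hsa-miR-106b-3p, hsa-miR-93-5p, hsa-miR-93-3p, hsa-miR-25-5p and hsa-miR-25-3p. The chromosome X cluster supplied 4 members, each a mature form that no other cluster encodes, namely hsa-miR-106a-5p, hsa-miR-18b-5p, hsa-miR-20b-5p and hsa-miR-363-3p. The naming rule uses no measured value.

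The study examined the role of miR-21 across cancer-derived cells. Small RNA was sequenced from established lines derived from thyroid cancer (C643), ovarian cancer (ES-2) and liver cancer (Huh-7), with 1 library for each line. All 3 libraries came from parental cells without a deletion or treatment, grown in serum-containing medium and collected 48 h after seeding. There were no replicates, so each value describes 1 library and intervals cover counting error only.

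A precursor hairpin is cut into a 5p arm and a 3p arm, and an Argonaute protein keeps one of the arms as the guide strand. Bases 2 to 8 of that strand, the seed, select the target mRNAs, so paralogs that share a seed can share targets. The miR-106b-25 cluster is transcribed with MCM7, which encodes a subunit of the replicative DNA helicase and is a target of the E2F transcription factors. The miR-17 seed family is known for repressing the cell cycle inhibitor CDKN1A, and the miR-25 and miR-92a family for repressing the pro-apoptotic BCL2L11.

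On GRCh38 with the GENCODE 29 annotation, the 3 precursors of the first cluster lay within 515 bases of the minus strand. MIR106B was at chr7:100093993-100094074, MIR93 at chr7:100093768-100093847 and MIR25 at chr7:100093560-100093643. All 3 were inside MCM7 (chr7:100092728-100101940, minus strand) and overlapped 0 of its annotated exons, so the placement was intronic. The second cluster held 6 precursors within 901 bases, chrX:134169378-134170278 on the minus strand. They lay in an exon of the non-coding transcript AC002407.1.

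The mature sequences of all 10 members were found in the RefSeq table for GRCh38.p14 and are shown 5′ to 3′ with the seed in capitals, because the seed sorts them into families. Seed AAAGUGC was shared by these members and by the chromosome 13 miRNAs miR-17-5p and miR-20a-5p:
hsa-miR-106b-5p: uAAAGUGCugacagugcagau
hsa-miR-93-5p: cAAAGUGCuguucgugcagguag
hsa-miR-106a-5p: aAAAGUGCuuacagugcagguag
hsa-miR-20b-5p: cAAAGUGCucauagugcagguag
hsa-miR-17-5p: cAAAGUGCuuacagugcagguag
hsa-miR-20a-5p: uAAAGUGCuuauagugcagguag

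Seed AUUGCAC was shared by these members and by miR-92a-3p, which the chromosome 13 and X clusters both encode:
hsa-miR-25-3p: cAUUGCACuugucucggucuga
hsa-miR-363-3p: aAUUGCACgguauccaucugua
hsa-miR-92a-3p: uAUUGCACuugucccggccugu

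Seed AAGGUGC differed from the first family and was shared by miR-18b-5p and its chromosome 13 paralog:
hsa-miR-18b-5p: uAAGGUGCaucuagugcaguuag
hsa-miR-18a-5p: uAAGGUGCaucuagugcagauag

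The opposite arms of the MCM7 precursors each had a seed that no other listed miRNA with a RefSeq sequence carried:
hsa-miR-106b-3p: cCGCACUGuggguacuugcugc
hsa-miR-93-3p: aCUGCUGAgcuagcacuucccg
hsa-miR-25-5p: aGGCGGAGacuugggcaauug

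How far a member can be told from its nearest relative differs between the clusters. With positions counted from 1 at the 5′ end and the member's base written first, miR-106a-5p differed from miR-17-5p by A1C and miR-18b-5p from miR-18a-5p by U20A. miR-20b-5p differed from miR-20a-5p by C1U and C10U. In the MCM7 cluster, miR-93-5p differed from its nearest mature relative, miR-20b-5p, by G10C, U11A and C13A, and miR-106b-5p differed from its 3 nearest relatives by 3 of its 21 bases each. How reads matching more than 1 locus were handled is not given in the sources used here, so the counts of miR-106a-5p, miR-18b-5p and miR-20b-5p, each within 2 bases of a more abundant paralog, are uncertain. miR-363-3p differed from its nearest mature relatives at 8 positions.

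The libraries held 8183100 miRNA reads in C643, 2173587 in Huh-7 and 1663181 in ES-2. Values are given as a share of these reads, which no scaling factor between libraries can alter; C643 was deposited in a separate table. A count of 0 was set against a floor of 3 reads, which is a share of 3.67e-05% in C643, 0.000138% in Huh-7 and 0.00018% in ES-2. The hepatocyte marker miR-122-5p took 13.3% of Huh-7 reads, against 6 reads in ES-2 and 468 in C643. The other hepatocyte markers, miR-885-5p and miR-192-5p, were also highest in Huh-7. Of 4 blood cell markers, ES-2 held 542 reads of miR-142-3p, with 0 in the other libraries, and miR-451a, miR-144-3p and miR-223-3p had 0 or 1 read in each library. Of 3 embryonic stem cell markers, miR-373-3p had 4 reads in C643 and the rest were at 0. No thyroid or ovarian marker list was used, so the tissue labels of C643 and ES-2 were not checked. hsa-miR-21-5p, the subject of the study, took 28.6% of reads in C643, 33.3% in Huh-7 and 28.2% in ES-2.

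The MCM7 cluster was expressed in all 3 lines and took its highest share in Huh-7. Its 6 arms together made up 0.853% of reads in C643 (69771 reads), 2.65% in Huh-7 (57510 reads) and 0.792% in ES-2 (13177 reads). The Huh-7 share was 3.34-fold that of ES-2 (95% interval 3.28 to 3.40) and 3.10-fold that of C643 (3.07 to 3.14). The order of C643 and ES-2, 1.08-fold apart (1.06 to 1.10), turned on the scale: it was reversed on the deposited scale, at -0.16 log2 for C643 over ES-2. The median log2 ratio over the miRNAs with over 3 reads in both libraries was -1.02 for ES-2 over Huh-7 and -0.65 for C643 over Huh-7. Relative to that shift the cluster stood at -0.72 and -0.99 log2, so it was lower than in Huh-7 on this scale too.

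miR-93-5p, a guide strand of the miR-17 seed family, led the cluster in ES-2 and Huh-7. It took 0.247% of reads in C643 (20195 reads), 1.37% in Huh-7 (29861 reads) and 0.412% in ES-2 (6855 reads). It ranked 9th among all miRNAs in Huh-7, 23rd in ES-2 and 44th in C643. Huh-7 was 3.33-fold above ES-2 (3.25 to 3.42) and 5.57-fold above C643 (5.47 to 5.67), which became 1.77-fold and 3.55-fold on the deposited scale. The order of the lines was the same as for miR-106b-5p.

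miR-25-3p, which carries the miR-92a seed, followed another order. Its share was 0.44% in C643 (36002 reads), 1.005% in Huh-7 (21843 reads) and 0.265% in ES-2 (4406 reads), with ranks of 27, 17 and 33. It led the cluster in C643, where miR-93-5p reached 0.561 reads per miR-25-3p read (0.551 to 0.571). That ratio was 1.37 in Huh-7 (1.34 to 1.39) and 1.56 in ES-2 (1.5 to 1.62), so the leading member changed between lines. The ratio is taken within 1 library and no scaling enters it.

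miR-106b-5p, the second miR-17 family member of the cluster, was far lower than miR-93-5p in each library. It took 0.0299% in C643 (2450 reads), 0.13% in Huh-7 (2824 reads) and 0.046% in ES-2 (765 reads). The number of miR-93-5p reads per miR-106b-5p read was 8.24 in C643 (7.90 to 8.60), 10.6 in Huh-7 (10.2 to 11.0) and 8.96 in ES-2 (8.31 to 9.67). The intervals of C643 and ES-2 overlapped, and this ratio varied less across lines than that of miR-93-5p to miR-25-3p.

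Among the opposite arms, miR-93-3p and miR-25-5p were below their partners in every library, while miR-106b-3p matched or exceeded its partner outside Huh-7. miR-106b-3p took 0.0605% in C643 (4947 reads), 0.0971% in Huh-7 (2111 reads) and 0.0488% in ES-2 (812 reads). miR-25-5p took 0.0664% in C643 (5431 reads), 0.0316% in Huh-7 (686 reads) and 0.0162% in ES-2 (269 reads). miR-93-3p took 0.00912% in C643 (746 reads), 0.00851% in Huh-7 (185 reads) and 0.00421% in ES-2 (70 reads). None of these 3 arms had the order of its own partner across the lines, and for miR-93-3p the ratio of C643 to Huh-7 (1.07, 0.911 to 1.27) included 1.

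The sums of the arms show the same split. miR-106b-5p, miR-93-5p and miR-25-3p together made up 0.717% of reads in C643 and 0.723% in ES-2, a ratio of 0.991 whose interval (0.972 to 1.01) included 1, against 2.51% in Huh-7. Their partners miR-106b-3p, miR-93-3p and miR-25-5p made up 0.136% in C643 and 0.137% in Huh-7, a ratio of 0.991 (0.952 to 1.03), against 0.0692% in ES-2. By share, the sum in C643 was thus level with that in ES-2 for one set of arms and with that in Huh-7 for the other. Most single arms were not level. C643 over ES-2 was 0.651 for miR-106b-5p, 0.599 for miR-93-5p and 1.66 for miR-25-3p. C643 over Huh-7 was 0.622 for miR-106b-3p, 1.07 for miR-93-3p and 2.10 for miR-25-5p. On the deposited scale the ratio of the first pair of sums was 0.824 and that of the second 1.55. The levelling of the sums therefore holds for shares and not for that scale. The plot of member shares by library shows the single arms beside the low levels of the chromosome X members.

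**Figure D1:**
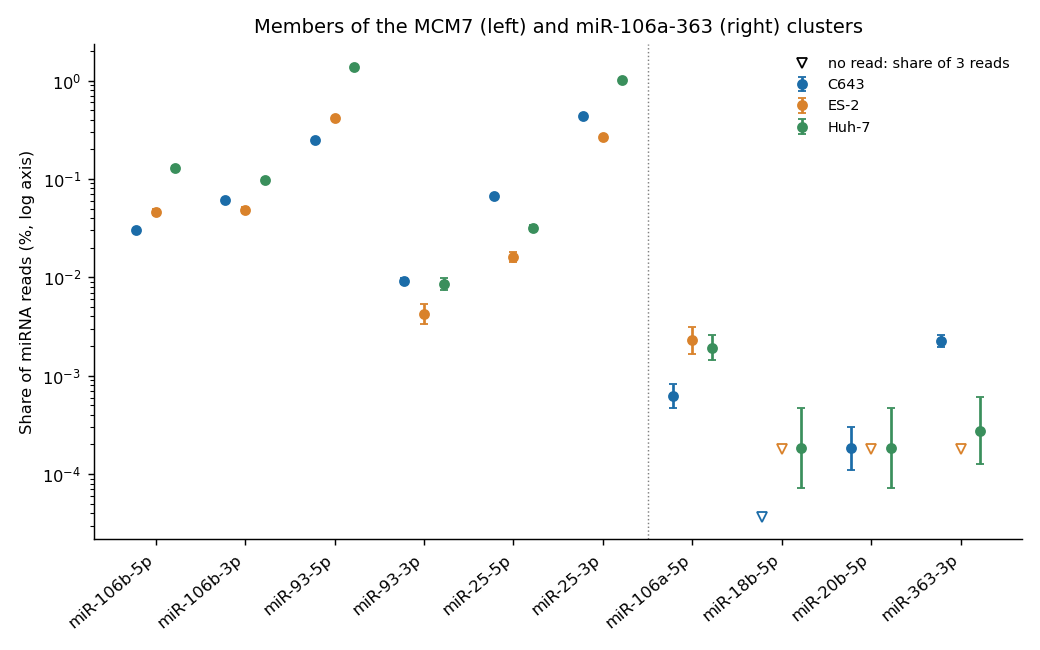
Share of all miRNA reads (%, log axis) of each member in C643, ES-2 and Huh-7, 1 library each, with 95% Wilson intervals for counting error; open triangles mark members without a read, at the share of 3 reads. miR-93-5p and miR-25-3p reach 1.37% and 1.005% in Huh-7, while each chromosome X member stays at or below 0.00228% in every library.

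Because both arms of a hairpin are counted in the same library, no scaling enters their ratio. Each line had 1 library and which facility made it is not given, so cell line and library preparation cannot be told apart in these ratios. The MIR106B hairpin is shown with its 5p and 3p arms in capitals, since it is the one whose leading arm changed:
MIR106B: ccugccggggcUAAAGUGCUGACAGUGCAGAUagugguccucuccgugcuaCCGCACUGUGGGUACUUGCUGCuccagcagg
In C643 the 3p arm led, with 0.495 reads of miR-106b-5p per read of miR-106b-3p (0.472 to 0.520). In ES-2 the arms were level at 0.942 (0.852 to 1.04), an interval that included 1. In Huh-7 the 5p arm led at 1.34 (1.26 to 1.42), so none of the 3 intervals overlapped another. The order of the arms turned between libraries in 8 of 42 precursors, 19.0%, among the precursors with 1 locus and at least 10 reads on each arm in each library (42 of 653 paired precursors). MIR106B was 1 of these 8.

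The other hairpins kept their leading arm and varied in how far it led. The number of miR-93-5p reads per miR-93-3p read was 27.1 in C643 (25.2 to 29.2), 161 in Huh-7 (140 to 188) and 97.9 in ES-2 (77.4 to 126). For miR-25-3p per miR-25-5p read it was 6.63 in C643 (6.44 to 6.82), 31.8 in Huh-7 (29.5 to 34.4) and 16.4 in ES-2 (14.5 to 18.6). For all 3 hairpins of the cluster the arm with the family seed was least dominant in C643, intermediate in ES-2 and most dominant in Huh-7, whether that arm was the 5p or the 3p. The hairpins share 1 host gene and each library, so they are not independent observations.

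Other hairpins moved in the same comparisons. Between C643 and Huh-7 the arm ratio differed 2.70-fold for MIR106B, 5.96-fold for MIR93 and 4.80-fold for MIR25, so 3 of 3 were at least 2-fold apart where 59.5% of the 42 precursors were. Between C643 and ES-2 it differed 1.90-fold, 3.62-fold and 2.47-fold in that order, so 2 of 3 passed where 50.0% of precursors did. Between ES-2 and Huh-7 it differed 1.42-fold, 1.65-fold and 1.94-fold, so 0 of 3 passed where 21.4% did. Among the 34 precursors whose leading arm was the same in every library, the lesser arm had its highest part in C643 in 47.1%, as it did in both MIR93 and MIR25. These counts rest on 3 hairpins, and differences of at least 2-fold from C643 were common among the precursors. Between C643 and Huh-7 the median difference was 2.46-fold. There the change of MIR93 was larger than that of 90.5% of the 42 precursors, that of MIR25 than 76.2% and that of MIR106B than 59.5%. The plot of arm ratios gives the 9 values with their intervals.

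**Figure D2:**
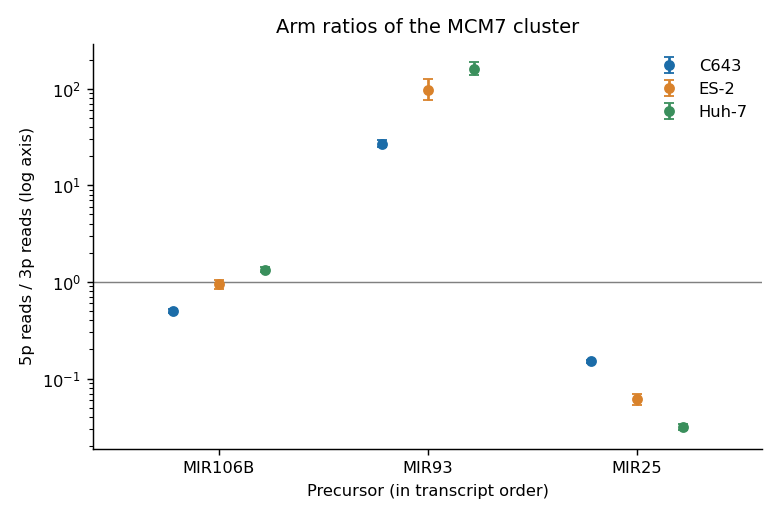
Reads of the 5p arm per read of the 3p arm (log axis) for MIR106B, MIR93 and MIR25 in C643, ES-2 and Huh-7, with exact 95% intervals for counting error; the line marks equal arms. MIR106B crosses the line from 0.495 in C643 to 1.34 in Huh-7, MIR93 rises from 27.1 to 161, and MIR25 drops further below it.

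The composition of the cluster differed along the same lines. With both arms summed, MIR25 supplied 59.4% of the cluster's reads in C643, 39.2% in Huh-7 and 35.5% in ES-2. MIR93 supplied 30.0%, 52.2% and 52.6% in the same order. MIR106B, the first hairpin of the transcript, supplied 10.6%, 8.58% and 12.0%. ES-2 and Huh-7 were thus alike in MIR93, with overlapping intervals (51.7 to 53.4% and 51.8 to 52.7%), while C643 stood apart in MIR93 and MIR25. As with the arm ratios, cell line and library preparation cannot be told apart in this composition.

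The chromosome X members had few reads in all 3 lines. The 4 together had 251 reads in C643, 56 in Huh-7 and 38 in ES-2, which are shares of 0.00307%, 0.00258% and 0.00228%. The interval of each ratio between libraries included 1 (C643 over ES-2 1.34, 0.952 to 1.94) by share. On the deposited scale the log2 ratio went from -0.17 to 0.74 for ES-2 over Huh-7 and from 0.25 to 0.90 for C643 over Huh-7. The sums were made of different members.

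miR-106a-5p, of the miR-17 seed family, supplied all reads of these members in ES-2 and most in Huh-7. It had 51 reads in C643 (0.000623%), 42 in Huh-7 (0.00193%) and 38 in ES-2 (0.00228%). Its share in ES-2 was 3.67-fold that in C643 (2.34 to 5.69) and 1.18-fold that in Huh-7 (0.742 to 1.88). The second interval included 1, but on the deposited scale the value was 2.23-fold, so whether ES-2 was above Huh-7 turned on the scale. Per 100 reads of miR-17-5p, the paralog that differs by 1 base, there were 2.72 reads of miR-106a-5p in C643, 1.39 in Huh-7 and 2.26 in ES-2. miR-17-5p was itself lowest in C643, with a share of 0.0229% against 0.139% in Huh-7 and 0.101% in ES-2. Whether part of the miR-106a-5p count came from reads of miR-17-5p was not tested.

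miR-363-3p, which carries the miR-92a seed and resembles no other mature miRNA closely, was a C643 miRNA within this cluster. It had 185 reads in C643 (0.00226%), 6 in Huh-7 (0.000276%) and 0 in ES-2. The C643 share was at least 12.5-fold higher than in ES-2, set against a floor of 3 reads, and 8.19-fold higher than in Huh-7 (3.69 to 22.6, and 12.8-fold on the deposited scale). Its C643 share lay well above the 3-read limits of ES-2 and Huh-7, so those libraries were deep enough to show such a level.

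miR-20b-5p and miR-18b-5p were barely detected. miR-20b-5p had 15 reads in C643, 4 in Huh-7 and 0 in ES-2, with equal shares in C643 (0.000183%) and Huh-7 (0.000184%) and a wide interval of their ratio (0.317 to 4.12). miR-18b-5p had 0 reads in C643 and ES-2 and 4 in Huh-7. For miR-20b-5p a difference between lines was not detectable at this depth. The miR-18b-5p share in Huh-7 was 0.000184% (7.16e-05 to 0.000473). It was at least 5.02-fold that in C643 (0 to 4.69e-05%), with the C643 count set at the read floor. Against ES-2 the bound was 1.02-fold, so no difference was detectable there. The Huh-7 value rests on 4 reads. Whether they came from miR-18a-5p, which differs by 1 base, was not tested.

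Of the other 6 arms that only the chromosome X cluster encodes, 3 had reads, all of them in C643. In C643, miR-106a-3p had 28 reads, miR-20b-3p 22 and miR-92a-2-5p 22, and all 3 had 0 reads in ES-2 and Huh-7. miR-18b-3p, miR-363-5p and miR-19b-2-5p had 0 reads in each library. Summed over all 10 of its own arms, the cluster had 323 reads in C643. Its share there was 1.73-fold that in ES-2 (1.23 to 2.49) and 1.53-fold that in Huh-7 (1.15 to 2.07). On the deposited scale these were 1.44-fold and 2.40-fold. miR-106a-5p, the arm with a lower share in C643 than in ES-2, was then left out after its values were seen. Without it the cluster had 272 reads in C643, 14 in Huh-7 and 0 in ES-2. That share was at least 18.4-fold higher in C643 than in ES-2 and 5.16-fold higher than in Huh-7 (3.02 to 9.57, and 8.09-fold on the deposited scale). Leaving out miR-106a-5p removes all of the reads in ES-2 and most in Huh-7, so high folds follow by construction. The plot of reads for the cluster's own arms shows miR-106a-5p as the single arm with reads in all 3 libraries.

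**Figure D3:**
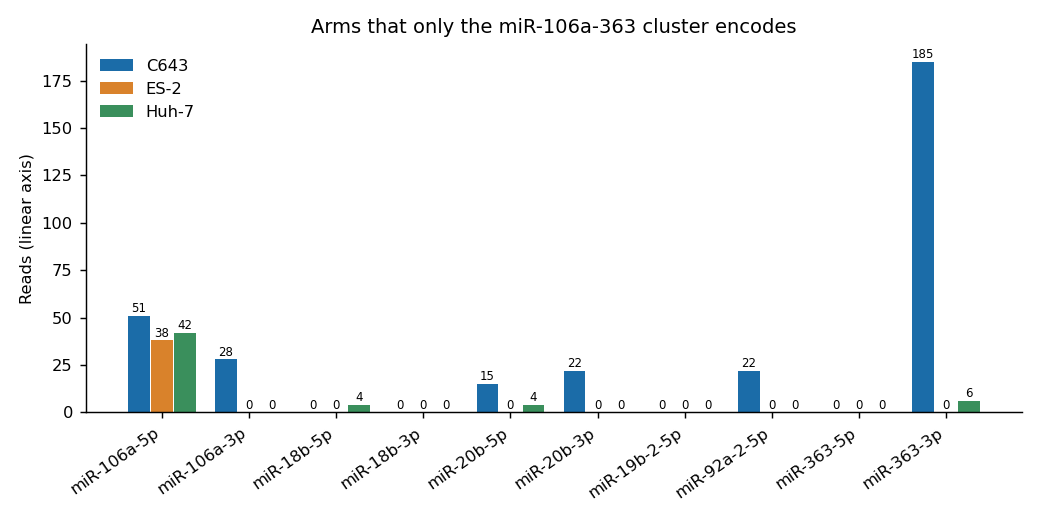
Reads (linear axis) of the 10 arms that only the miR-106a-363 cluster encodes, in C643, ES-2 and Huh-7, with the count above each bar; library totals differ and were 8183100, 1663181 and 2173587. Of the 10 arms, 6 had reads in C643, 4 in Huh-7 and 1 in ES-2.

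The mature forms that chromosomes 13 and X share do not show this imbalance. The deposited tables list reads for each locus, and 49.3% of miR-92a-3p reads were entered at the chromosome X locus in C643, 48.5% in Huh-7 and 49.2% in ES-2. For miR-19b-3p the part was 52.8%, 56.1% and 52.7%. The 5p arms of the same hairpins differ in sequence and so name their locus: miR-92a-1-5p of chromosome 13 had 2840, 740 and 633 reads, against 22, 0 and 0 for miR-92a-2-5p of chromosome X. That is a ratio of 129 in C643 (85.1 to 206), at least 247 in Huh-7 and at least 211 in ES-2. A read of a shared mature form matches both loci, so the near-equal entries do not measure the output of each cluster.

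Within the miR-17 seed family, the MCM7 members supplied most reads in every line. The family as a whole took 0.337% of reads in C643, 1.81% in Huh-7 and 0.712% in ES-2. Of its 8 mature miRNAs, 6, 6 and 5 had a read, in that order of libraries. miR-93-5p and miR-106b-5p together supplied 82.1% of it in C643 (81.6 to 82.5), 83.0% in Huh-7 (82.6 to 83.4) and 64.3% in ES-2 (63.5 to 65.2). The chromosome 13 miRNAs miR-17-5p and miR-20a-5p supplied 17.7%, 16.9% and 35.3%. The chromosome X members supplied 0.239%, 0.117% and 0.321%. ES-2 was the line with the largest chromosome 13 part, and there miR-17-5p exceeded miR-106b-5p by 2.20-fold (2.02 to 2.40). In C643 miR-106b-5p led with 1.31 reads per miR-17-5p read (1.23 to 1.39), and in Huh-7 the ratio was 0.937 (0.890 to 0.987).

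In the miR-92a seed family the MCM7 member was a minor part. The family took 3.12% of reads in C643, 8.45% in Huh-7 and 5.71% in ES-2. miR-25-3p supplied 14.1% of it in C643, 11.9% in Huh-7 and 4.64% in ES-2. miR-92a-3p supplied 81.1%, 87.2% and 92.0%. With its loci counted as 1, the part of miR-25-3p was 23.8% in C643, 21.1% in Huh-7 and 8.59% in ES-2. miR-92b-3p, from a locus of its own, supplied 4.54%, 0.868% and 3.34%, and miR-32-5p at most 0.118%. miR-363-3p reached 0.0726% in C643 and 0.00326% in Huh-7, with 0 reads in ES-2. In both families the MCM7 part was lowest in ES-2, as the plot of family composition shows. In the family of miR-18b-5p, miR-18a-5p supplied all 287 reads in C643, 99.4% of 1906 in Huh-7 and all 792 in ES-2.

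**Figure D4:**
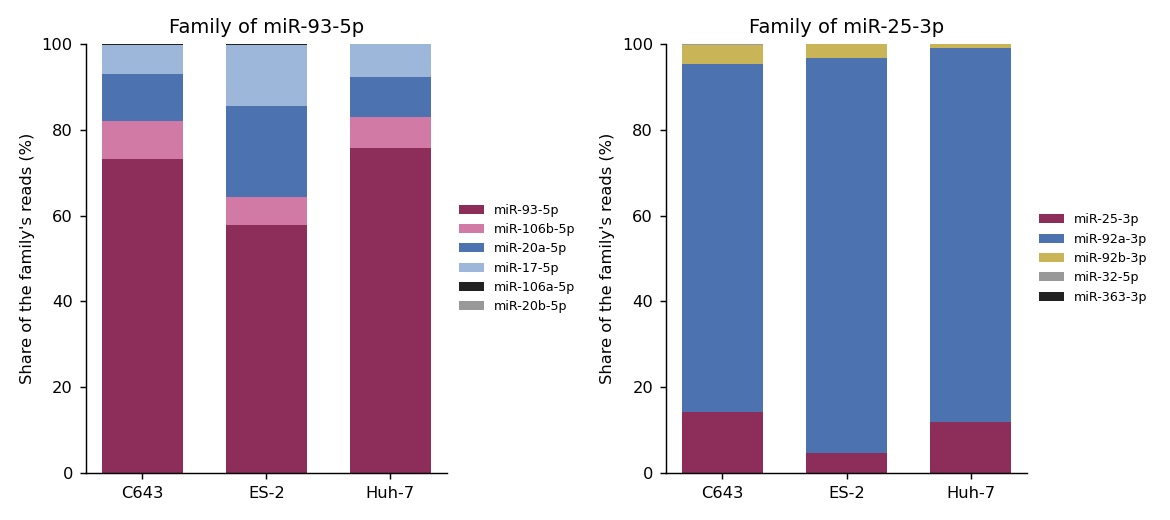
Share of each seed family's reads (%, bars stacked from 0 to 100) by mature miRNA in C643, ES-2 and Huh-7; purple shades are MCM7 members, blue shades chromosome 13 miRNAs, except that miR-92a-3p is encoded on chromosomes 13 and X. MCM7 members make up 82.1%, 64.3% and 83.0% of the miR-93-5p family and, with both miR-92a-3p loci summed, 14.1%, 4.64% and 11.9% of the miR-25-3p family.

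Set against all miRNAs, the members did not stand out in the comparison of ES-2 with Huh-7. A miRNA was called when its share differed at least 4-fold, among those with at least 10 deposited units in 1 of the 2 libraries. All 6 MCM7 members passed this filter and all 6 had the higher share in Huh-7, but 0 reached 4-fold, against 39.2% of the 390 miRNAs tested that were called higher in Huh-7 and 16.7% called higher in ES-2. Their median log2 ratio was -1.26, and that of all miRNAs tested was -1.46. With the median of the 366 miRNAs with over 3 reads in both libraries (-1.02) set to 0 instead, miR-106b-3p, miR-93-3p and miR-25-5p stood at 0.026, 0.0023 and 0.054 log2. The single chromosome X member that passed the filter, miR-106a-5p, was not called. A two-sided exact binomial test of the reads of the same pair, with Benjamini-Hochberg adjustment, called the 6 MCM7 members higher in Huh-7 and 0 of the 7 members tested higher in ES-2. It called 66.7% of all miRNAs tested higher in Huh-7 and 25.6% higher in ES-2, and it compares 2 libraries, not cell lines. miR-106a-5p was the member not called (adjusted p = 0.517 in this exact test).

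Against C643, a few members passed 4-fold. Compared with ES-2, miR-25-5p (4.10-fold, 3.63 to 4.66, and 3.41-fold on the deposited scale) and miR-363-3p were higher in C643, which is 2 of the 8 members tested where 20.2% of 351 miRNAs were called. None of the 8 was called higher in ES-2, where 10.3% of all miRNAs were. Compared with Huh-7, miR-363-3p was higher in C643, 1 of 8 where 20.3% of 399 miRNAs were called. miR-106b-5p (4.34-fold, 4.11 to 4.58) and miR-93-5p were higher in Huh-7, 2 of 8 where 33.1% were called. miR-363-3p passed the filter through C643 alone, where it is high, so its difference was built into the filter and its calls support nothing. No reading is drawn from counts this small. On the deposited scale, which raises C643 against Huh-7 by 0.65 log2, miR-106b-5p and miR-93-5p were 2.77-fold and 3.55-fold higher in Huh-7.

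**Figure D5:**
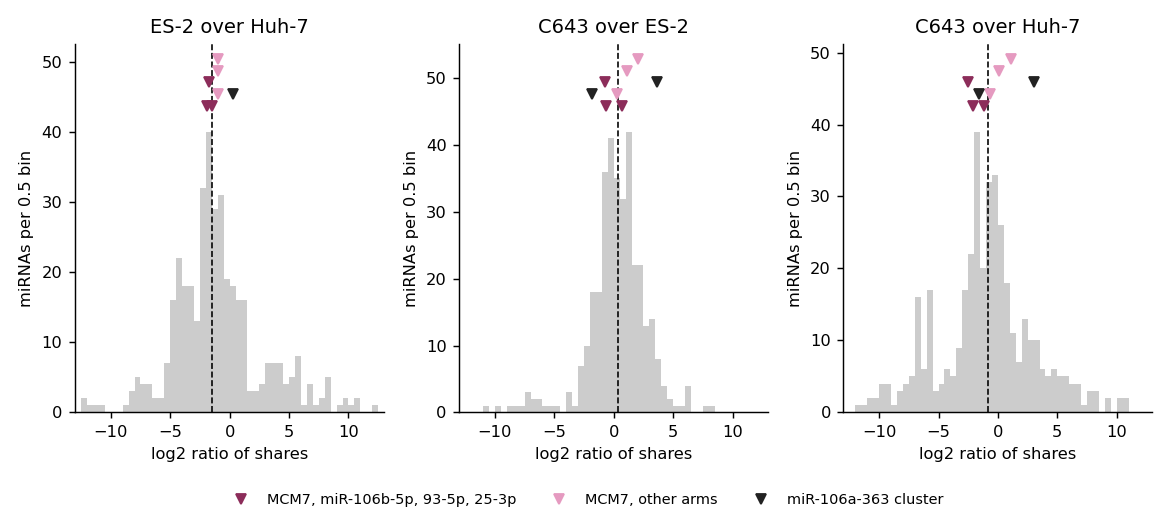
Number of miRNAs by log2 ratio of shares (bins of 0.5) in each pair of libraries, over the 390, 351 and 399 miRNAs tested; the dashed line is their median and triangles mark the members tested (their height has no meaning). The triangles of the MCM7 members lie around the median, at a member median of -1.26 against -1.46 for ES-2 over Huh-7.

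The chromosome 13 arms, a related list of 10, were by median ratio lower in C643 than in both other lines. The MCM7 members were so against Huh-7 but not against ES-2. Of the 8 chromosome 13 arms that passed the filter, 4 were called higher in ES-2 than in C643, where 10.3% of 351 miRNAs were. These were miR-17-5p, miR-17-3p, miR-18a-5p and miR-20a-5p. Called higher in Huh-7 than in C643 were 6 of the 8, where 33.1% of 399 miRNAs were. miR-17-3p, with 0 reads in C643, passed the filter only through the other library of each pair, so its calls were built into the filter. miR-92a-1-5p was near level, with a C643 share 0.912 times that of ES-2 and 1.02 times that of Huh-7. The median log2 ratio of these 8 arms for C643 over ES-2 was -2.01. That of the MCM7 members was 0.52 and that of all miRNAs tested was 0.34. For C643 over Huh-7 the medians were -2.39, -0.94 and -0.86 in that order. Between ES-2 and Huh-7, 0 of the 8 were called in either direction, with a median of -0.30. The lists share libraries and the difference between them was not tested.

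Among 200 other miRNAs with at least 10 deposited units in each library, the 3 whose shares across the 3 libraries ran most like those of the summed MCM7 cluster were miR-345-5p, miR-181d-5p and miR-320d. The root mean square difference of their centred log2 shares was 0.0092, 0.0646 and 0.0722. miR-345-5p, for example, took 0.00996% in C643, 0.0313% in Huh-7 and 0.00938% in ES-2. A match over 3 libraries is a description only.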

How the data were processed

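The submitters' processing notes name cutadapt 1.14, Bowtie2 2.3.3, SAMtools 1.5, featureCounts 1.5.3, edgeR 3.18.1 and build hg38. Their roles, settings, the miRNA annotation and the handling of multi-mapping reads are not given in the sources used here, and neither is which facility made each library. The deposited values, named CPM by the authors, are a signal per locus: reads times a library factor. The columns did not sum to 1000000. Dividing by the step between values gave whole reads for 100% of nonzero values (tolerance 0.001 reads).

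Loci of the same mature miRNA were added up. Shares had Wilson intervals, and ratios exact binomial 95% intervals; at or under 3 reads a floor of 3 reads gave a lower bound. Reads may be PCR copies of fewer molecules. Members, related miRNAs (paralogs, shared seeds, markers) and lists were chosen with earlier results of these data known. The exact binomial test called 360 of 390 miRNAs at an adjusted p limit of 0.05. Scripts used Python 3.11.15, SciPy 1.17.1 and pandas 2.3.3 and were tested on simulated data. Alternatives covered the denominator, scaling, pseudocount, filter, fold limit and locus counting.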

Additional observations from a re-analysis of the deposited data

Results flagged for a closer look

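Within-library ratios stood on opposite sides of 1 in different lines, and these differences were not tested because each line had 1 library. The reads of miR-106b-5p per read of miR-106b-3p were 0.495 in C643 and 1.34 in Huh-7. The reads of miR-93-5p per read of miR-25-3p were 0.561 in C643, 1.37 in Huh-7 and 1.56 in ES-2. The reads of miR-106b-5p per read of miR-17-5p were 1.31 in C643, 0.937 in Huh-7 and 0.455 in ES-2.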

How the results depend on the processing

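No paired analysis was possible because no line had a second library or a replicate number. For C643, then ES-2, then Huh-7, the share of the MCM7 cluster was 0.818, 0.915 and 1.62% per 1000000 deposited units, 1.19, 1.10 and 3.97% without miR-21-5p in the denominator, 1.03, 0.93 and 2.92% with 1 locus per miRNA, and 0.747, 0.726 and 2.51% for the more abundant arm of each hairpin. Huh-7 was highest each time. The chromosome X members took 0.0043, 0.00318 and 0.00386% without miR-21-5p, 0.00369% in C643 with 1 locus per miRNA, and 0.00158% in Huh-7 per 1000000 deposited units. Without miR-106a-5p, an alternative chosen after seeing the data, they took 0.00244, 0 and 0.000644%.

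The log2 ratio of the MCM7 sum for ES-2 over Huh-7, -1.74 by share, was -0.82 on the deposited scale with or without a pseudocount of 1 or 10, and -0.72 with the median ratio set to 0. For C643 over Huh-7, -1.63 by share, it was -0.99 on the deposited scale, -0.99 with the median at 0, -0.99 with a pseudocount of 1 and -0.98 with 10. For C643 over ES-2, 0.11 by share, the sign turned: -0.16 on the deposited scale and with either pseudocount, and -0.11 with the median at 0. For the chromosome X members, ES-2 over Huh-7 turned from -0.17 to 0.74, 0.71 (pseudocount 1), 0.50 (pseudocount 10) and 0.84 (median at 0), and was -1.84 without miR-106a-5p. C643 over Huh-7 went from 0.25 to 0.90, 0.86 (pseudocount 1) and 0.90 (median at 0), and 1.92 without miR-106a-5p. C643 over ES-2 became 3.76 without it. Leaving out miR-106a-5p removes all of the reads in ES-2 and most in Huh-7, and pseudocounts pull low values together, by construction. The deposited scale adds 0.92 log2 to ES-2 over Huh-7, -0.27 to C643 over ES-2 and 0.65 to C643 over Huh-7.

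Of single members, miR-106b-3p, miR-93-3p and miR-25-5p turned from lower to level in ES-2 over Huh-7 with the median at 0 (0.026, 0.0023 and 0.054 log2). At 2-fold, 4 members were called higher in Huh-7 than ES-2. The exact test of reads called 6, where it called 66.7% of all miRNAs tested higher in Huh-7. Also at 2-fold, 1 member was higher in ES-2 than C643, 2 higher in C643 than Huh-7 and 4 higher in Huh-7 than C643. At 8-fold, 1 was higher in C643 than ES-2 and 0 higher in Huh-7 than C643. With a filter at 100 units, 1 was higher in C643 than ES-2 and 0 higher in C643 than Huh-7. The part of all miRNAs called at 2-fold, at 8-fold and at 100 units was not computed, so nothing is read from these counts. The part of miR-25-3p in its family was 23.8, 8.59 and 21.1% with 1 locus counted for miR-92a-3p. Members under 10 units in both libraries were not rescaled. Of the other single-member values, 76 moved beyond counting error without changing sign and 13 did not. Arm ratios kept their direction on the log2 scale with a pseudocount of 1. Depth limits miR-18b-5p and miR-20b-5p most.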
